A study of Homo sapiens with 2 samples.

Results

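MiR-183, miR-96 and miR-182 are 3 microRNAs (miRs) whose hairpins lie together on chromosome 7 and are thought to be cut from 1 primary transcript. The names of the deposited table were reduced to their stem, by dropping the species prefix, the asterisk and the arm, and every row with the stem miR-183, miR-96 or miR-182 was kept. This gave 7 of the 934 names, namely miR-183, miR-183*, miR-96, miR-96*, mir-96*, miR-182 and miR-182*. The table came from small RNA libraries of K562, a line of human chronic myelogenous leukemia cells that was grown without the drug, and of K562/ADM, a stable derivative of K562 selected in rising concentrations of adriamycin (ADM, an anthracycline) and kept in 1000 ng/mL of it. By descent K562/ADM would share the genetic changes of K562, but the genotype of either line was not tested here. With 1 library per line, what is compared is a pair of libraries and not the conditions. Differences have no replicate check, and no p-value was computed.

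Clustered miRs are released from a common transcript by Drosha in the nucleus and Dicer in the cytoplasm, and 1 arm of each hairpin, here the 5p arm, is usually the strand that is loaded into Argonaute. The miR-183 cluster is best known from sensory organs, where changes in the seed of miR-96 cause hearing loss, and it is raised in many tumours. Its members have been reported to repress FOXO1 and FOXO3, forkhead transcription factors that slow cell division and favour cell death.

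The mature sequences of both arms are shown because the 3 5p arms resemble each other at the seed, which is the stretch that pairs with targets. They were taken from RefSeq (GRCh38.p14), run 5′ to 3′, and have bases 2 to 8 in capitals.
miR-183 (5p arm, chr7:129774967-129774988): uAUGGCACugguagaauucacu
miR-96 (5p arm, chr7:129774739-129774761): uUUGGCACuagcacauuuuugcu
miR-182 (5p arm, chr7:129770447-129770470): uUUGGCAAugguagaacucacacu
miR-183* (3p arm, chr7:129774928-129774949): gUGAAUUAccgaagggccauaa
miR-96* (3p arm, chr7:129774697-129774718): aAUCAUGUgcagugccaauaug
miR-182* (3p arm, chr7:129770406-129770426): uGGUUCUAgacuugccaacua

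MiR-96 and miR-182 shared bases 2 to 7 and differed at the last base of the seed. MiR-183 matched miR-96 at 6 of the 7 seed bases and miR-182 at 5. Over the whole length, seed included, the likeness had another order. MiR-183 and miR-182 were identical at 18 of the first 22 positions. The counts were 13 of 22 for miR-183 and miR-96 and 12 of 23 for miR-96 and miR-182. All 3 5p arms began with U. The one further mature miR of the RefSeq table with the 6 bases of miR-96 and miR-182 was miR-1271-5p, which has the whole seed of miR-96.
miR-1271-5p: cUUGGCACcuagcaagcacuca
The deposited table does not list miR-1271. It lists mir-1271*, with 0 reads in K562 and 3 in K562/ADM, so that nearly all reads with these seeds in the table came from the cluster itself.

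All 3 hairpins are read from the minus strand of chromosome 7. On GRCh37, MIR183 occupies positions 129414745 to 129414854, MIR96 positions 129414532 to 129414609 and MIR182 positions 129410223 to 129410332. MIR183 and MIR96 are 135 nt apart, whereas 4199 nt separate MIR96 from MIR182, and the whole cluster spans 4.63 kb. GENCODE places all 3 inside the lncRNA gene ENSG00000286380 (129402900 to 129420060, minus strand), outside its annotated exons. The nearest protein-coding genes are NRF1, 13.3 kb away, and UBE2H, 55.7 kb away. The hairpins of MIR96 and MIR182 are printed with both mature arms in capitals to show how the arms face each other across the loop.
MIR96 (chr7:129774692-129774769, GRCh38.p14, minus strand): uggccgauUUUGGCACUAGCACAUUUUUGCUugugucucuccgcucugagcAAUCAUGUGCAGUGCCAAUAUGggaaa
MIR182 (chr7:129770383-129770492, GRCh38.p14, minus strand): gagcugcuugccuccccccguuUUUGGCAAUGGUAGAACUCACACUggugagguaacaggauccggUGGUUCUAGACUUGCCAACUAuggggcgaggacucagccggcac

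The deposited values are read counts divided by the size factor of each library, from which whole reads were recovered. They came to 7677738 reads in K562 and 6895193 in K562/ADM. Of 4 blood cell markers, miR-142-3p had 351692 and 507475 reads and miR-223 had 1712 and 1246, while the table does not list miR-150 and miR-155. The 3 erythroid markers (miR-144, miR-451 and miR-486-5p) had 51757 and 36358 reads in all. Their counts did not move together, with 5564 and 6216 reads of miR-144, 30470 and 19738 of miR-451, and 15723 and 10404 of miR-486-5p. Of the list of epithelial miRs (miR-200 family, miR-141, miR-205 and miR-203) 7 of 7 names were listed, with 1023 and 835 reads in all. Most of these were miR-141, while miR-203 had 66 and 18 reads and miR-200a 2 and 9. Liver and muscle markers had at most 22 reads in either library, and of the neural markers miR-124 had 1 and 2 reads, whereas miR-9 had 7976 and 17882. Intervals are exact 95% limits from the read counts and cover counting error only, since reads amplified by PCR without molecular identifiers are not independent molecules. Reads of different miRs were not corrected for how well each sequence is ligated, so levels are compared between miRs as reads.

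The 5p arms of the cluster were abundant in both libraries. MiR-182 had 127942 reads in K562 (16664 RPM, reads-per-million) and 93296 in K562/ADM (13531 RPM). It was the 11th and the 9th most abundant of the 934 names. MiR-183 had 38761 and 46025 reads, or 5048 and 6675 RPM, and ranked 18th and 14th. MiR-96, the member known from inherited hearing loss, had 10911 and 15601 reads, or 1421 and 2263 RPM, and ranked 45th and 37th. The order miR-182, miR-183, miR-96 was thus the same in both lines, with counting intervals far apart, and each of the 3 ranked higher in K562/ADM. For miR-182 the higher rank went with a lower RPM, since a rank also depends on the other names.

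**Figure D1:**
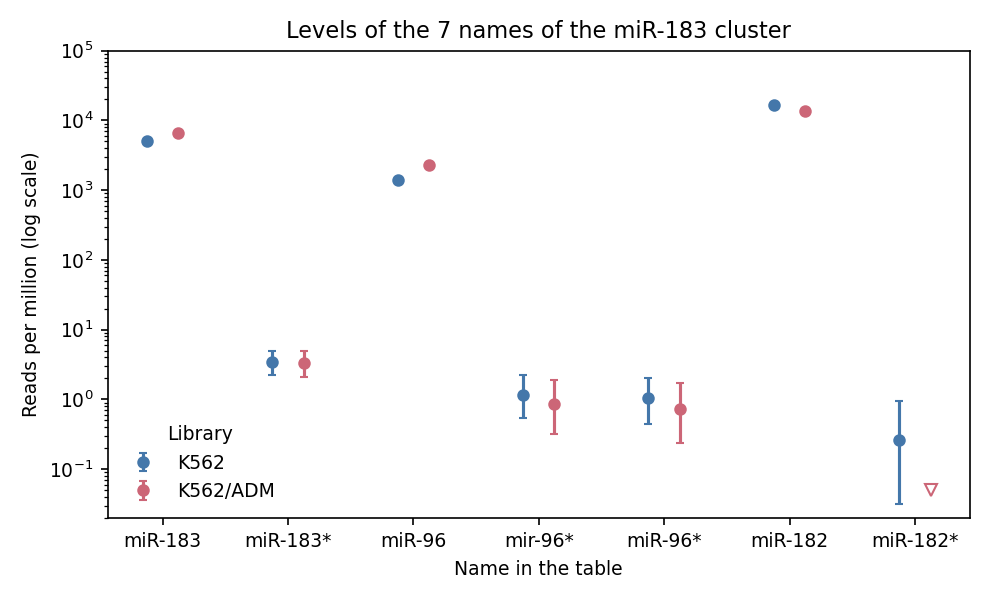
RPM (y axis, log scale) of the 7 names of the cluster (x axis) in K562 (blue) and K562/ADM (red), with exact 95% counting intervals as bars, which are smaller than the points for the 5p arms. The open triangle marks 0 reads and is drawn at an arbitrary height. The 5p arms lie above 1000 RPM and the names with an asterisk below 4.

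Taken as 1 unit, the cluster held nearly the same part of each library. Its 7 names had 177659 reads in K562, 2.314% of the library (2.303 to 2.325), and 154956 in K562/ADM, 2.247% (2.236 to 2.258). Without miR-378, the most abundant miR, the parts were 4.69% and 4.79%. After scaling by the median of ratios, which centres the median name on a ratio of 1, the summed reads of K562/ADM stood at 1.07 times those of K562 (1.06 to 1.08). The ratio fell on the other side of 1 under 3 of the other scalings, between 0.971 and 0.994, and was 1.79 under upper-quartile scaling.

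Within the cluster the 3 miRs did not move together. After scaling, miR-96 went from 9860 to 17264 scaled reads, 1.75 times as high (1.71 to 1.79). MiR-183 went from 35027 to 50932 scaled reads, 1.45 times as high (1.43 to 1.47). MiR-182 went the other way, from 115615 to 103243, or 0.893 times its level in K562 (0.885 to 0.901). The intervals of these 3 names excluded 1, as did those of 43.8% of all names in the table, and the intervals of the other 4 names held 1. That share counts many names with few reads, whose intervals are wide. At high counts small differences can exclude 1, as with miR-425, a reference of the authors, at 1.09 (1.07 to 1.10). With a call defined as a ratio of at least 2-fold and an interval that excludes 1, 0 of the 7 names were called lower and 0 were called higher, against 15.6% and 11.1% of all names. Under upper-quartile scaling, which raises every log2 ratio by 0.74, the ratio of miR-183 was 2.43, that of miR-96 2.93 and that of miR-182 1.49. The other scalings shifted log2 ratios by at most 0.14 and left each of the 3 on its side of 1.

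**Figure D2:**
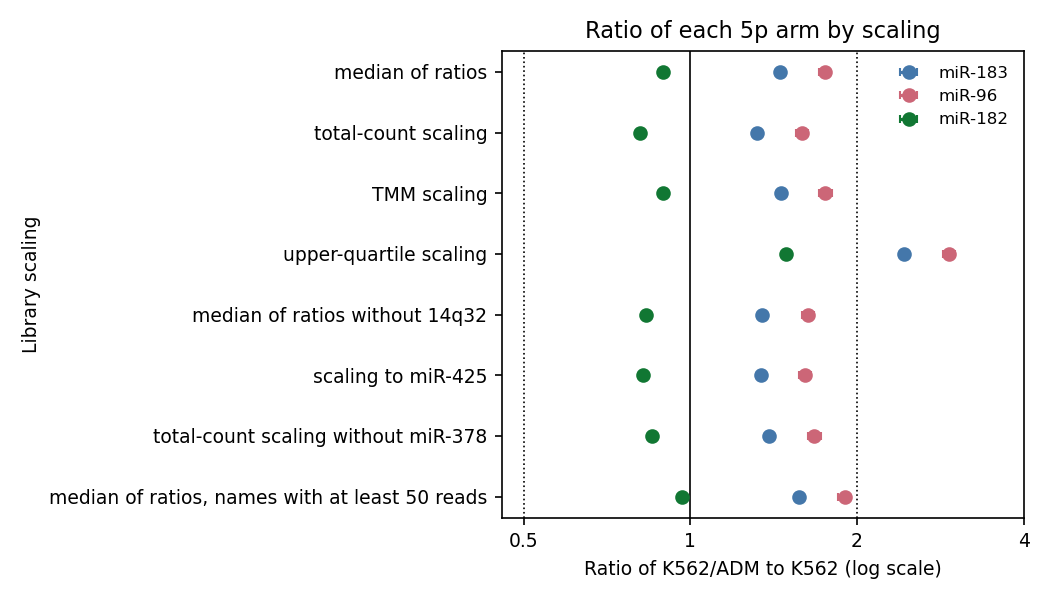
Level in K562/ADM divided by that in K562 (x axis, log scale) for the 5p arms of miR-183 (blue), miR-96 (red) and miR-182 (green) under 8 library scalings (y axis), with exact 95% counting intervals as bars, mostly smaller than the points. A solid line marks equality, dotted ones 2-fold. The order miR-182, miR-183, miR-96 and the distances between the points are the same in every line, and only upper-quartile scaling puts miR-182 above 1.

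The comparison of the members with each other needs no scaling of the libraries. In K562 there were 11.7 reads of miR-182 for each read of miR-96, and in K562/ADM 5.98. The ratio of miR-96 to miR-182 was therefore 1.96 times as high in K562/ADM (1.91 to 2.01). For miR-183 there were 3.30 and 2.03 reads of miR-182 per read, a ratio 1.63 times as high (1.60 to 1.66). MiR-96 and miR-183, whose hairpins lie next to each other, differed least, with 3.55 and 2.95 reads of miR-183 per read of miR-96 and a ratio 1.20 times as high (1.17 to 1.24). The member that differed most from the others was thus miR-182, whose hairpin lies 4199 nt from that of miR-96. Whether the distance between hairpins bears on these differences was not tested.

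As shares of the cluster, miR-182 took 72.0% of the reads in K562 (71.8 to 72.2) and 60.21% in K562/ADM (59.96 to 60.45). The share of the miR-183 hairpin was 21.8% (21.6 to 22.0) and 29.7% (29.5 to 29.9), and that of the miR-96 hairpin 6.15% (6.04 to 6.26) and 10.1% (9.93 to 10.2). In percentage points the share of miR-182 changed by -11.8, that of miR-183 by 7.89 and that of miR-96 by 3.93. The summed level of the cluster does not show this exchange. How far a second library of each line would repeat it was not tested.

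**Figure D3:**
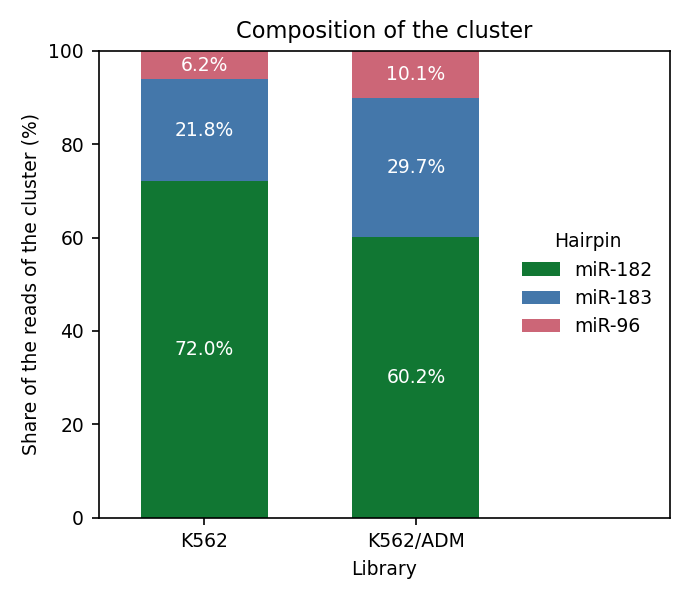
Share of the reads of the cluster, in percent (y axis), that came from the hairpins of miR-182 (green), miR-183 (blue) and miR-96 (red) in the libraries of K562 and K562/ADM (x axis). The part of miR-182 is 72.0% in K562 and 60.2% in K562/ADM.

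Reads of the 3p arms were rare, and their counts were too low to set the lines apart. The passenger strand miR-183* had 26 reads in K562 against 23 in K562/ADM, and its scaled ratio was 1.08 (0.591 to 1.98). MiR-96* had 8 and 5 reads (ratio 0.765, 0.197 to 2.65). The table also holds mir-96*, spelled with a small r, with 9 and 6 reads (ratio 0.816, 0.239 to 2.57). No source used here says what that spelling marks, or whether both rows of miR-96 count some of the same reads. For miR-182* K562 showed 2 reads and K562/ADM 0. Both counts are under the floor of 3 reads, so that no fold is given. The authors left out sequences seen once before mapping, and the effect of this on counts as low as these was not tested.

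The 3p arm took 0.0670% of the reads of the miR-183 hairpin in K562 (0.0438 to 0.0982) and 0.04995% in K562/ADM (0.0317 to 0.0749), and the odds of a 3p read in K562/ADM were 0.745 times those in K562 (0.406 to 1.36). For miR-96 the shares were 0.0733% (0.0316 to 0.144) and 0.0320% (0.0104 to 0.0748), and the odds were 0.437 times those in K562 (0.113 to 1.52). With mir-96* added, the shares were 0.156% and 0.0705%, and the odds were 0.4525 times those in K562 (0.1915 to 1.025). In the miR-182 hairpin the 3p arm took 0.00156% in K562 (0.000189 to 0.00565), and for the 0 of 93296 reads in K562/ADM the exact upper limit was 0.00395%, while a floor of 3 reads would be 0.00322%. A shift in arm use between the lines was not detectable at this depth in any of the 3 hairpins. In each line the 5p arm outnumbered the 3p arm by over 1000 to 1, leaving mir-96* aside.

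The 3 hairpins lay toward the one-sided end of those that could be compared. Among hairpins with both arms listed under the spelling miR or let, and at least 1000 reads, the rarer arm took a median of 2.27% over 74 hairpins in K562 and 1.53% over 63 in K562/ADM. In K562, 5 hairpins had a smaller share of the rarer arm than miR-183, 6 a smaller one than miR-96 and 1 a smaller one than miR-182. In K562/ADM these numbers were 7, 6 and 0. With the reads of mir-96* added, a choice made after seeing the data, 13 other hairpins had a smaller share than miR-96 in K562 and 9 in K562/ADM. Hairpins whose rarer arm is listed only under the spelling mir, such as miR-381 (149839 reads in K562, against 7 of mir-381*) and miR-451 (30470 against 3), were not among those compared and can be as one-sided. These examples were chosen after their values were seen. Hairpins with more reads can show smaller shares, so this order is a description.

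**Figure D4:**
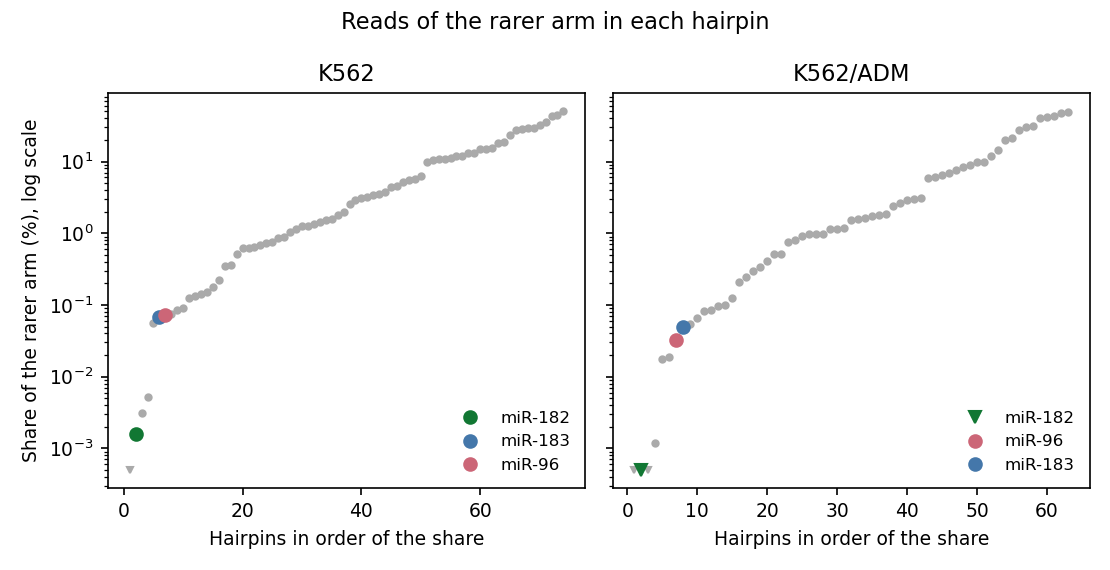
Share of the rarer arm in each hairpin (y axis, percent on a log scale) for hairpins with at least 1000 reads, in order of that share (x axis), in K562 (left) and K562/ADM (right). Coloured points are the miR-183 (blue), miR-96 (red) and miR-182 (green) hairpins, grey points are the others, and triangles at an arbitrary height mark shares of 0. The 3 hairpins of the cluster, without the reads of mir-96*, lie toward the low end in both libraries.

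Unequal ratios within a cluster were also seen elsewhere. The log2 ratios of the 3 5p arms spanned 0.97. In miR-106b-25, a cluster of 3 hairpins in the gene MCM7, the span was 1.01, from miR-106b with a ratio of 1.29 (1.27 to 1.31) to miR-25 with 0.637 (0.625 to 0.649). The 6 miRs of the growth-promoting miR-17-92 cluster spanned 1.03, from 0.952 for miR-17 to 0.466 for miR-19a. Among 7 miRs of the miR-532 to miR-502 cluster on chromosome X, with 3873 and 6966 reads in all, the span was 1.69. Median log2 ratios were 0.54 in the miR-183 cluster, -0.44 in miR-106b-25, -0.69 in miR-17-92 and 0.65 in miR-532 to miR-502. The median over the 709 names with reads in both libraries was 0.00, which the scaling sets. In the miR-183 cluster the median is the value of miR-183 itself, while the summed reads of that cluster had a log2 ratio of 0.10. MiR-19b and miR-92a of miR-17-92 are also made from another locus, so their reads are not from this cluster alone.

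The log2 ratios of the more abundant arms were also compared in 37 other pairs of hairpins with at least 50 reads each. These pairs lay within 10 kb on the same strand, outside the imprinted 14q32 domain. They were not a complete set, since the growth-promoting cluster of the preceding paragraph gave no pair. MiR-15b was paired with the rarer arm miR-16-2* (37 and 18 reads), as miR-16 was not among the names paired. For the miR-501 hairpin the pairs used miR-501-3p, whereas the cluster list of the preceding paragraph held miR-501-5p. The median and the counts of larger pairs therefore hold for these 37 only. Their median difference was 0.55, with quartiles of 0.21 and 0.90. The difference was 0.27 between miR-96 and miR-183, and 27 of the 37 pairs had a larger one. It was 0.70 between miR-183 and miR-182, with 14 pairs larger, and 0.97 between miR-96 and miR-182, with 9 pairs larger. Many of the 37 pairs, and most of the 9, came from the miR-532 to miR-502 cluster. The others of the 9 were miR-181c with miR-181d (1.43) and miR-25 with miR-106b (1.01). Pairs of the same cluster share hairpins and are not independent, so no test was made.

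**Figure D5:**
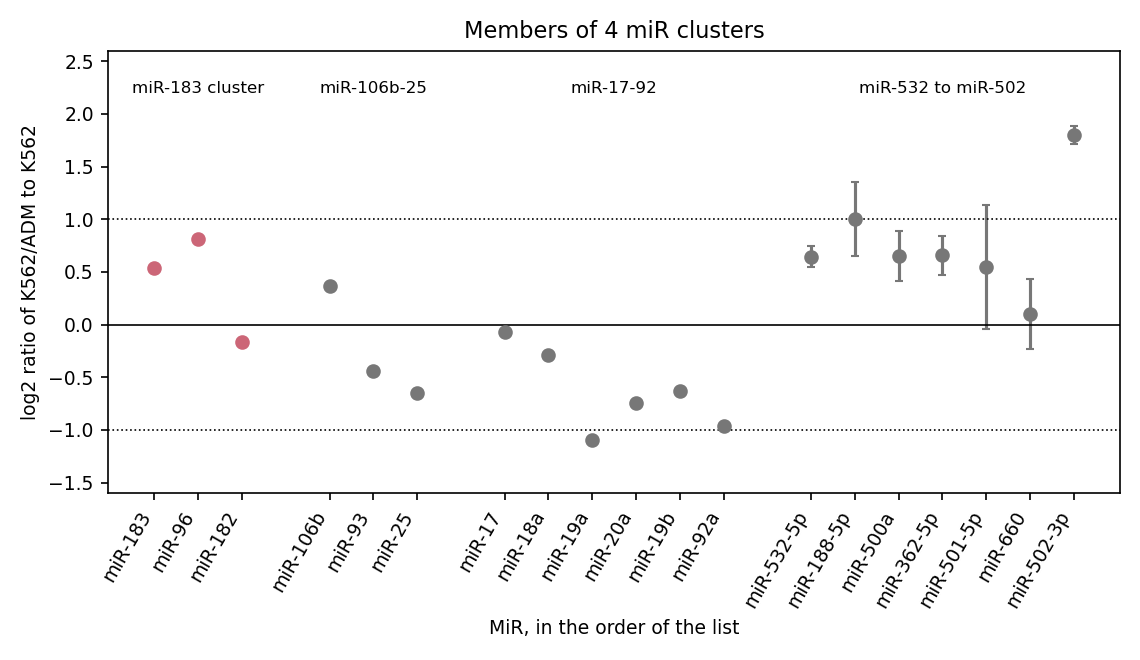
Log2 of the level in K562/ADM over that in K562 (y axis) for the miRs of 4 clusters (x axis), red for the miR-183 cluster and grey for the others, with exact 95% counting intervals as bars. A solid line marks equality, dotted ones 2-fold. MiR-96 and miR-183 lie above 0 and miR-182 below it, a span of 0.97 beside 1.01, 1.03 and 1.69 in the other clusters.

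The miRs nearest in level were found by the distance between log2 RPM in both libraries, over 425 names with at least 50 reads and with reads in each library. These are 2 values per name, so that likeness of level is all the measure holds. MiR-30e and miR-18a lay nearest to miR-182, at distances of 0.23 and 0.24. MiR-106b and miR-144* lay nearest to miR-183, at 0.24 and 0.37. MiR-10a (10324 and 18492 reads) and miR-24 (8669 and 17093) lay nearest to miR-96, at 0.26 and 0.36. The latter pair had ratios of 2.193 (2.141 to 2.247) and 2.415 (2.353 to 2.478) and so passed the 2-fold limit that miR-96 did not. Among the 63 names whose reads in the 2 libraries came to at least 10000, whose median log2 ratio was 0.03, 7 had a higher ratio than miR-96, and 4 were called higher and 7 lower.

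FOXO repression was the reason to follow these miRs as a group, and other miRs widely reported to repress FOXO1 or FOXO3 were set beside them. Of the 11 names on that list 10 were in the table, 2 were called higher, 1 was called lower and 7 were not called, beside 11.1% of all names called higher and 15.6% called lower. The median log2 ratio of the 8 with reads in both libraries was 0.04. MiR-27a, reported to repress FOXO1, went from 6962 to 9985 reads, and its ratio of 1.756 (1.703 to 1.811) lay within the interval of miR-96. MiR-135b went from 167 to 1669 reads, 12.2-fold higher after scaling (10.4 to 14.4). MiR-139-5p had 0 and 9 reads, which is 3.67-fold higher against a floor of 3 reads. That value leaves out the counting error of the 9 reads, and the exact interval of the ratio of miR-139-5p starts at 2.42. MiR-370, which belongs to the 14q32 domain, had 187 and 0 reads, 50.9-fold lower against the same floor. The exact interval of the ratio of miR-370 ends at 0.0244, which allows a smaller fold than the floor gives. MiR-486-5p, an erythroid miR, had 15723 and 10404 reads (ratio 0.810, 0.790 to 0.831), and miR-223, a myeloid miR, 1712 and 1246 (0.891, 0.828 to 0.959).

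Of the miRs reported to repress FOXO3, miR-212 had 145 and 202 reads (1.71, 1.37 to 2.13) and its neighbour miR-132 had 110 and 85 (0.946, 0.705 to 1.27). MiR-221 had 12 and 11 reads and miR-222 had 5 and 1, so that both names were near the limit of detection in these cells. The other arm of the miR-221 hairpin, miR-221*, had 234 and 124 reads (0.649, 0.518 to 0.810). The table does not list miR-155. By reads the cluster outweighed the list, with 7.10 times its summed reads in K562 and 6.56 times in K562/ADM. Most reads of the list were of miR-486-5p and miR-27a, and these factors hold for the chosen names only.

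The 3′-UTRs of FOXO1 and FOXO3 were read to see which of the related seeds have matches there. Matches to bases 2 to 8 of each miR were searched on the sense strand of the 3′-UTR of the canonical GENCODE transcripts on GRCh37, as GTGCCAT for miR-183, GTGCCAA for miR-96 and TTGCCAA for miR-182. FOXO1-201, with a 3′-UTR of 3382 nt on the minus strand of chromosome 13, held 2 matches for miR-183, 2 for miR-96 and 0 for miR-182. They are printed with the match in capitals.
FOXO1, miR-183, nucleotide 236 of the 3′-UTR (chr13:41132944-41132950): tagataaggactGTGCCATtggaaatt
FOXO1, miR-96, nucleotide 264 (chr13:41132916-41132922): cattacaatgaaGTGCCAAactcacta
FOXO1, miR-96, nucleotide 2139 (chr13:41131041-41131047): taactgaacttgGTGCCAAagtacttg
FOXO1, miR-183, nucleotide 2194 (chr13:41130986-41130992): cactttcctcccGTGCCATtactgcat
Both miR-96 matches hold TGCCAA followed by A, and these 6 bases also pair with bases 2 to 7 of miR-182. FOXO3-202, with a 3′-UTR of 4982 nt on the plus strand of chromosome 6, held 2 matches for miR-182, 1 for miR-96 and 0 for miR-183.
FOXO3, miR-182, nucleotide 72 (chr6:109001067-109001073): agagaaaaccctTTGCCAAatctgctc
FOXO3, miR-182, nucleotide 914 (chr6:109001909-109001915): gctctccactcaTTGCCAAatgtcact
FOXO3, miR-96, nucleotide 3661 (chr6:109004656-109004662): tcctccatgttgGTGCCAAggacttgc

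Short matches of this kind are common. The first 3382 nt of 2882 other 3′-UTRs at least as long as that of FOXO1 were searched. At least 1 match for miR-183 occurred in 21.3%, for miR-96 in 16.6% and for miR-182 in 26.1%. In the first 4982 nt of 1312 other 3′-UTRs at least as long as that of FOXO3, these shares were 29.6%, 24.3% and 36.6%. Shares with 2 or more matches, as FOXO1 and FOXO3 hold for some of the miRs, were not counted. A match is a description and shows no pairing in these cells, in which the mRNA and protein of FOXO1 and FOXO3 were not measured by these libraries.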

How the data were processed

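Small RNA was sequenced from K562 and K562/ADM, 1 library each. The authors dropped sequences seen once, mapped the rest with Bowtie in miRanalyzer (default parameters) to miRBase 16 and normalized with DESeq. CASAVA 1.7.0 and the build hg18 are also given in the submitters' processing notes. In the deposited signal each read count has been divided by a size factor of its library. The table's own folds and p-values, which compare the libraries, were not used.

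The smallest nonzero value of a column was taken as 1 read, and this made 100% of the values whole (tolerance 0.001). The median of ratios gave the size factors again. Ratios and shares have exact 95% Clopper-Pearson intervals, and ratios of ratios have conditional exact intervals. No replicated count model could be fitted, since 1 library per line leaves no residual degrees of freedom. Calls needed a ratio of at least 2-fold and an interval without 1.

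The members and lists were chosen with earlier results of these data known. The miRs named are the members, miRs that share bases 2 to 7, reported repressors of FOXO1 or FOXO3, hairpins within 2 Mb, 3 comparison clusters, the 2 names nearest in level to each 5p arm, cell type markers and the references miR-425 and miR-378. MiR-500 of the list is miR-500a in the table. Sequences came from RefSeq on GRCh38.p14 (all 6 mature arms matched, as did 2 hairpins), and gene positions and 3′-UTRs from GENCODE on GRCh37. Alternatives were other scalings, 1 added to the scaled values, a minimum of 10 reads, and calls by fold or interval alone. The intervals were tested on data simulated with counting error only. Such data hold no amplification and no variation between libraries, so the test does not cover these. TMM and upper-quartile factors came from edgeR 4.0.16 in R 4.3.3, intervals from scipy 1.17.1 and tables from pandas 2.3.3 with numpy 2.4.6 in Python 3.11.15. Figures were drawn with matplotlib 3.10.9.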

Additional observations from a re-analysis of the deposited data

How the results depend on the processing

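Of the 4 ratios of the cluster, those of miR-183 and miR-96 stayed above 1 under the median of ratios and each of 8 alternatives, from 1.32 to 2.43 and from 1.59 to 2.93. They passed 2-fold, at 2.43 and 2.93, under upper-quartile scaling. The ratio of miR-182 ran from 0.812 to 1.49 and was above 1, at 1.49, under upper-quartile scaling. The summed reads were below 1 under total-count scaling (0.971), the median of ratios without 14q32 (0.994) and scaling to miR-425 (0.983), and stood at 1.79 under upper-quartile scaling, so their direction depends on the scaling. Over all names, 146 were called lower and 104 higher. Upper-quartile scaling gave 95 and 223, calls by fold alone 275 and 236, and calls by the interval alone 223 and 186. The shift of each scaling is the same for every name, so the ratios between members do not depend on it. No library could be left out. No paired analysis was possible because each cell line has 1 library. Depth limits the 3p arms, of which none had over 26 reads.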

Other observations

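Within 2 Mb of the cluster on chromosome 7, RefSeq (GRCh38.p14) places 5 other hairpins, MIR593, MIR129-1, MIR335, MIR29A and MIR29B1, of which 4 had names in the table, 9 in all. Of these names 4 were called higher, 3 of them from the hairpin of miR-335, 0 were called lower and 5 were not called, beside 11.1% of all names called higher and 15.6% called lower. MiR-335, whose gene lies in an intron of the imprinted gene MEST 721 kb from the cluster, had 29 and 50 reads, a ratio of 2.11 (95% interval 1.31 to 3.46), and miR-335* had 37 and 110, a ratio of 3.64 (2.49 to 5.44). The third name called from that hairpin, mir-335*, had 6 and 23 reads. MiR-129-5p, which is also made from a second locus, had 10 and 21 reads (2.57, 1.16 to 6.12). MiR-29a, 1102 kb away, had 915 and 645 reads (0.863, 0.779 to 0.956), and miR-29b, also made from a second locus, 3512 and 3453 (1.20, 1.15 to 1.26). A change in copy number of this part of chromosome 7 was not tested.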
